A study of Solanum lycopersicum x Solanum pennellii and Solanum lycopersicum and Solanum pennellii with 305 samples.

Results

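The expression of 100 tomato genes was described across the root tips of 77 genotypes, chosen because their level in many introgression lines was far from that of the parent M82 although the line's introgression lay on another chromosome. Each introgression line (IL) carries a segment of the genome of the wild, drought tolerant species S. pennellii in the cultivated tomato M82, so by design a gene outside the segment is the M82 copy. The genes were chosen by the following steps. Counts were divided by the library's column total and multiplied by 1000000 to give CPM, which was averaged per genotype and converted to log2(mean CPM + 0.5). For every gene the ILs on its own chromosome were set aside, the remaining lines more than 2.5 log2 units from M82 were counted, and the 100 genes with the highest count were taken from 29633, with ties broken by identifier. The difference from M82 and the line means on other chromosomes thus chose the genes and are given as a description, with no test. Levels in S. pennellii and in the lines on a gene's own chromosome were not used by the choice. The spread among the libraries of a line was not used directly, but 1 high library can carry a line mean past the threshold. That spread is therefore not independent of the choice.

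In an introgression population, a difference at the gene's own segment is called local or cis, because the sequence that differs may be the gene's own, and a difference elsewhere is called distant or trans, because the gene's own sequence is that of M82. Tomato gene identifiers of the form Solyc12g098400 hold the chromosome (here 12) and the order along it, and are written here without their version suffix. The deposited tables pair no identifier with a gene name or product and hold no sequence, so the members are described by identifier, and no role was assigned to any of them.

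The sequencing libraries used here were made from the root tip RNA of seedlings of M82, S. pennellii (PENN) and 75 ILs, with M82 and 73 ILs in 4 libraries and S. pennellii, IL7-5 and IL9-1-2 in 3, which gave 305 libraries. The parents were S. lycopersicum cv. M82 and S. pennellii accession LA0716, all seedlings were a few days old and none was treated. A library holds the root tips of the seedlings of a genotype from 1 growth cycle. The replicates were grown at different times and the libraries of each replicate were pooled for sequencing, so growth time and sequencing pool cannot be told apart. A genotype carried the same barcode in all of its libraries, and M82 and S. pennellii were sown on more plates than the ILs. Library totals ran from 683199 to 11338423 counts with a median of 4303828, so that 1 count in a median library equalled 0.232 CPM, and 2 libraries held fewer than 1000000 counts. Low CPM values therefore rest on a few counts. Of the root genes used to check the tissue, SHORT-ROOT (Solyc02g092370) was at 30.6 to 40.3 CPM in the M82 libraries and at 30.0 to 41.5 CPM in the line means, SCARECROW (Solyc10g074680) was at 27.3 to 48.8 CPM in the line means, and FER (Solyc06g051550), a regulator of the root's iron response, was at 133 to 256 CPM.

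The count of lines past the threshold ranged from 4 to 44 among the 100 genes, with a median of 7. Of all genes, 335 of 29633 (1.13%) had at least 1 such line. In 89 members the lines that passed were all higher than M82, in 9 they were all lower, and in 2 some were higher and some lower. The M82 mean was under 1 CPM in 61 members, of which 11 had no count in any M82 library, which allows up to 0.184 CPM at 3 counts over the 4 libraries. Members came from every chromosome, with 15 on chromosome 1, 11 on chromosome 5, 10 on chromosome 9 and 1 not placed on a chromosome.

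The lowest counts show where the choice ended. The last 5 genes inside the list were Solyc10g008810, Solyc10g075100, Solyc11g007180, Solyc11g008420 and Solyc11g015900, each with 4 lines, and Solyc11g016930 and Solyc11g050940 also had 4 lines but fell outside by identifier. The next genes, Solyc00g068970, Solyc01g006620 and Solyc01g058500, had 3 lines. A total of 26 members had 4 lines, so the end of the list is set by small differences in the count.

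**Figure D1:**
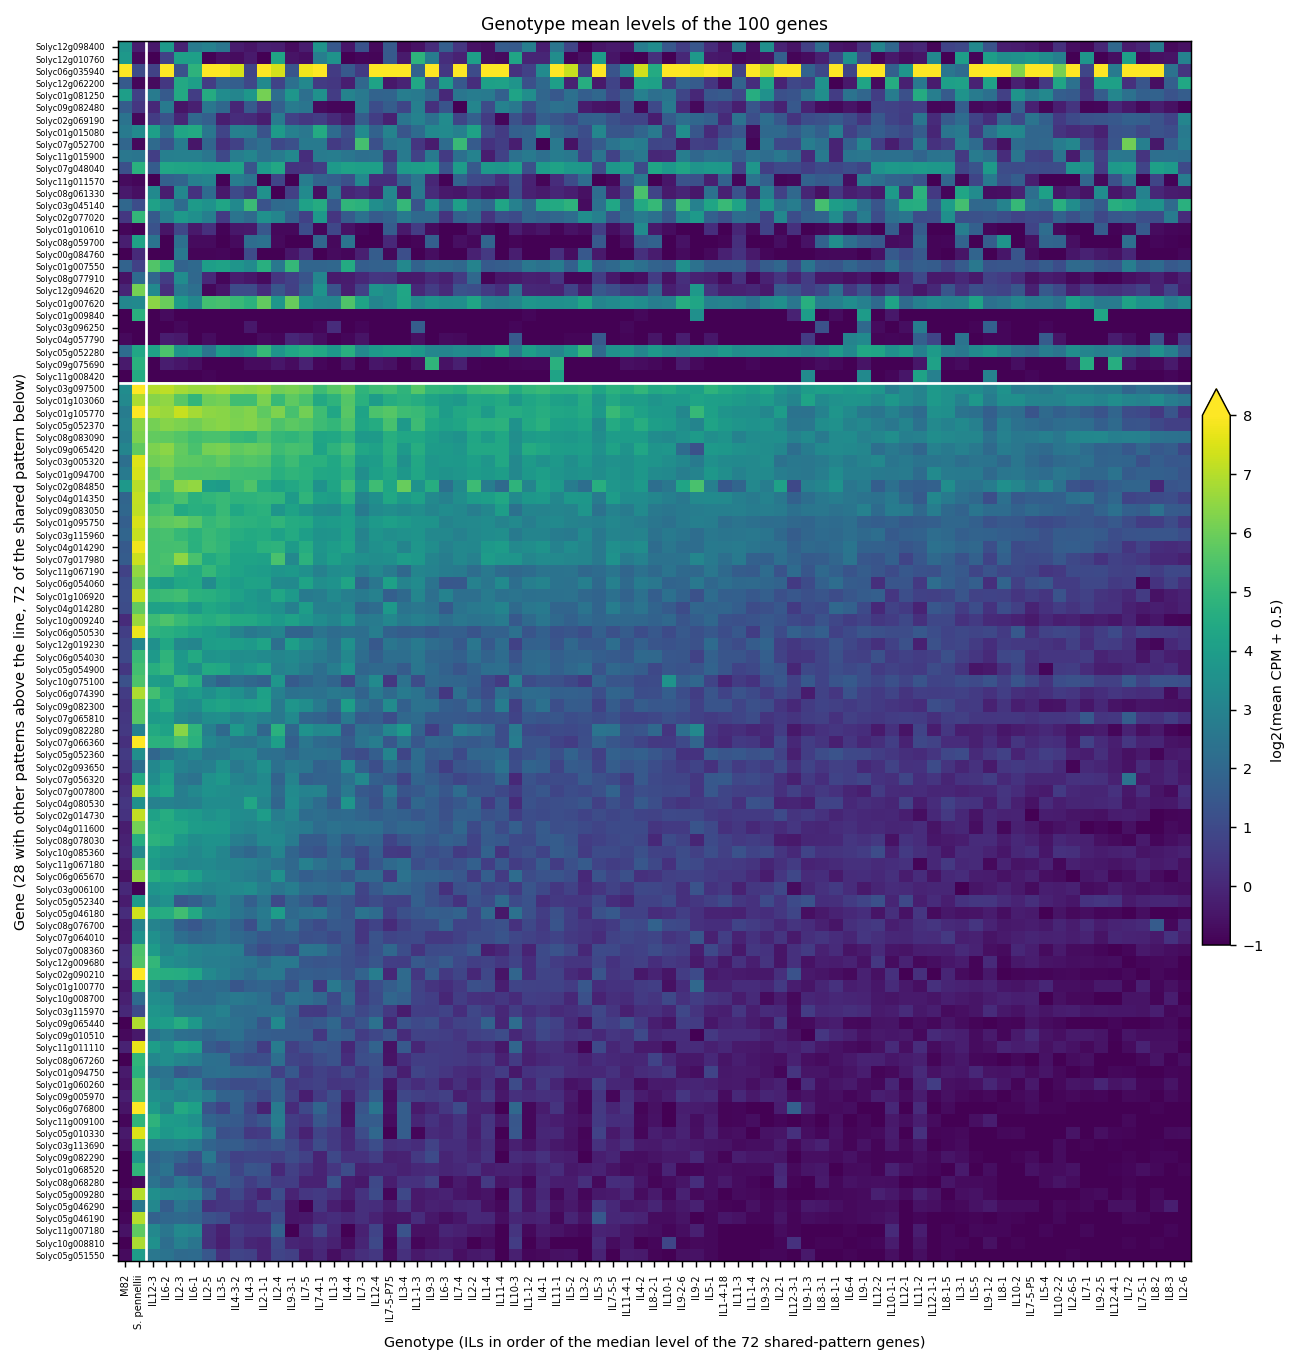
Heat map of log2(mean CPM + 0.5) of the 100 genes (rows) in M82, S. pennellii and the 75 ILs (columns, in order of the median level of the 72 genes that share a pattern). Above the white line are the 28 genes outside the shared pattern, of which 24 stood alone and 4 formed pairs, whereas most of the 72 below it are high in the lines at the left and in S. pennellii; the colour scale ends at 8, and higher values have the colour of 8.

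The 100 genes fell into a single large shared pattern and a set of separate ones. When genes were joined at a Pearson correlation of at least 0.8 across the 75 line means, 72 genes formed 1 group, 2 groups held 2 genes each, and 24 genes stood alone. A gene joined the group through a correlation of at least 0.8 with any 1 of its genes (single linkage). Within the group the median pairwise correlation across lines was 0.86 (lowest 0.44). This is a description, because the same line means formed the group and the lines share growth times and pools. Of the member and line pairs past the threshold, 561 came from the shared pattern and 338 from the other 28 genes. Every library of the line was itself more than 2.5 log2 units from the M82 mean in 34.0% of the pairs of the shared pattern and in 58.6% of those outside it.

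The 2 members with the most lines apart were genes expressed in M82 and nearly silent in many lines. Solyc12g098400 was counted in 44 of 68 lines on other chromosomes, the highest count of all genes. Its level in the M82 libraries was 7.80, 10.96, 10.9 and 17.3 CPM. No count was found in the 4 libraries of IL3-2, whereas the libraries of IL6-2 stood at 16.9, 13.3, 8.42 and 15.9 CPM and those of IL7-4-1 at 9.70, 17.1, 9.84 and 11.5 CPM. The IL6-2 and IL7-4-1 libraries overlapped those of M82, while S. pennellii was near silent at 0.240, 0.203 and 0.530 CPM. The line means filled the range between these ends with no gap larger than 0.32 log2 units, so this gene was graded rather than strictly on or off. Among the lines on chromosome 12 the libraries of IL12-2 were at 9.02, 5.68, 9.11 and 8.56 CPM and those of IL12-4-1 at 3.73, 5.31, 3.52 and 2.04 CPM, and the other 5 lines had means of at most 0.367 CPM.

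Solyc12g010760 was the second such gene, with 43 lines lower than M82. M82 stood at 13.3, 16.1, 10.9 and 12.9 CPM. The libraries of IL1-1-3 were higher, at 31.1, 29.3, 26.3 and 23.4 CPM, and those of IL10-3 were at 17.8, 19.5, 19.4 and 19.1 CPM. IL2-1-1 had no count in 4 libraries, and 8 lines in all had none. In S. pennellii only 1 of 3 libraries had any count (0, 0.203 and 0 CPM). The largest step between neighbouring line means, 1.07 log2 units, divided 51 low from 24 high lines, and in 72 of 75 lines every library lay on the side of its line's mean. On chromosome 12, IL12-1-1 was at 6.67, 14.1, 7.61 and 6.15 CPM and the other 6 lines were at 0.137 CPM or less. Lines on a gene's own chromosome, which the choice did not use, were tested against the average of the ILs that carry another chromosome's segment. They were taken by chromosome number alone, without segment positions. Such a line may therefore carry the M82 copy of the gene, and a call is not by itself a local effect. The test was the quasi-likelihood test of edgeR, with p-values adjusted after Benjamini and Hochberg over all such gene-line pairs. At an adjusted p of at most 0.01, 6.71% of all pairs were called higher and 5.72% lower. By this test IL12-1-1 was higher (adjusted p = 3.30e-38), although its mean of 8.63 CPM was below the M82 mean of 13.3 CPM. The average it was set against includes many of the low lines. The call thus does not set IL12-1-1 apart from the other high lines.

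Solyc06g035940 was the most abundant of the 100 genes in M82. M82 had 287, 350.3, 282 and 271 CPM, and 27 lines on other chromosomes were lower than M82 by more than the threshold. The highest line, IL5-1, had 477, 508, 416 and 411 CPM, and the lowest, IL10-3, had 1.02, 0.535, 0.858 and 0.496 CPM. These ranges do not overlap, and S. pennellii was in the low range at 1.20, 1.42 and 2.297 CPM. The line means split into 30 low and 45 high lines across a step of 1.33 log2 units. The lines on chromosome 6 took both states. IL6-2 was high at 299.9, 328, 215 and 268 CPM and IL6-3 was low at 0.849, 0.852, 0.572 and 1.25 CPM. IL6-1 was low in 3 libraries and high in replicate 2, at 1.396, 106, 2.47 and 1.05 CPM. In this gene the edgeR test called IL6-2 higher (adjusted p = 2.22e-20) and IL6-3 and IL6-4 lower (adjusted p = 5.76e-14 and 6.92e-13) than the average IL on another chromosome. Since that mean lies between the states, a line in either state differs from it, and such a call does not tell which state is unusual.

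The other members lower in the lines had fewer lines. Solyc01g081250 was at 19.5, 17.0, 11.96 and 15.7 CPM in M82 and lower in 16 lines, while IL2-1-1, at 111, 40.3, 70.6 and 52.1 CPM, stood 1.52 log2 units above the next line. The median line, at 4.38 CPM, was itself below every M82 library. On chromosome 1 this gene was at 1.25, 1.11, 1.01 and 0.651 CPM in IL1-3 and at 25.8, 23.3, 18.9 and 26.3 CPM in IL1-1-4, which do not overlap. Solyc07g052700 was lower in 4 lines, among them IL4-1 with no count, against 3.57, 2.90, 2.66 and 4.53 CPM in M82, and S. pennellii had 0.240, 0 and 0 CPM. Its chromosome 7 lines went the other way. IL7-2 had 87.5, 70.7, 44.7 and 59.5 CPM, IL7-3 had 59.5, 38.0, 31.6 and 31.2 CPM and IL7-4 had 35.2, 23.3, 43.6 and 33.0 CPM, each above every library of M82 and of S. pennellii. The edgeR test called these 3 lines and 6 more of the 10 lines on chromosome 7 higher than the ILs on other chromosomes, with adjusted p = 7.90e-130 for IL7-2. Solyc09g082480 (8 lines), Solyc02g069190 (5), Solyc01g015080 (4) and Solyc11g015900 (4) had M82 means between 2.68 and 5.89 CPM. Solyc11g015900 followed its neighbour Solyc11g016930, the first gene outside the list, across the 75 lines (r = 0.93).

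The reverse, a gene low in M82 and high in most lines, was also found. Solyc07g048040 was at 0.974, 1.24, 2.66 and 2.37 CPM in M82 and higher in 36 lines on other chromosomes. The libraries of IL2-4 were at 21.0, 20.7, 22.4 and 17.7 CPM, and those of IL9-3-1 at 0.932, 0, 0.926 and 1.15 CPM. All 75 lines fell into 2 levels, 30 with means of 0.752 to 2.58 CPM and 45 with means of 10.96 to 20.5 CPM, with nothing between them over 1.89 log2 units, and in each of the 75 lines every library lay on the side of the mean. M82 lay in the low level and S. pennellii, at 23.7, 24.7 and 28.4 CPM, lay above the mean of every line. The lines on chromosome 7 were divided between the levels, with IL7-1, IL7-2, IL7-3, IL7-4 and IL7-5-5 high and IL7-4-1, IL7-5, IL7-5-1, IL7-5-P5 and IL7-5-P75 low. The libraries of IL7-3 were at 15.9, 19.4, 16.7 and 13.7 CPM and those of IL7-4-1 at 0.746, 1.87, 0.923 and 0.687 CPM. All 10 lines passed the edgeR test against the mean of the other lines, 5 in each direction, and that mean again lay between the levels.

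Several more genes were silent or low in both parents and on in some lines. Solyc11g011570 had counts in 1 of 4 M82 libraries (0, 0.414, 0 and 0 CPM) and in 1 of 3 S. pennellii libraries (0, 0 and 0.177 CPM), yet 25 lines were higher. IL7-3 had 16.9, 6.13, 5.34 and 6.52 CPM and IL2-5 had 9.90, 8.101, 6.32 and 7.27 CPM. Its line means formed a slope with no step above 0.70 log2 units. On its own chromosome, IL11-2 was at 2.44, 1.71, 2.54 and 1.44 CPM and IL11-4-1 at 3.17, 2.89, 2.49 and 2.21 CPM, both above every parental library. Solyc12g062200 was at 3.90, 1.65, 2.39 and 1.73 CPM in M82 and near silent in S. pennellii (0, 0 and 0.177 CPM). It was higher in 18 lines and lower in 2. IL3-2 had 30.3, 19.2, 25.3 and 21.0 CPM. Of the lines on chromosome 12, IL12-4 was at 19.1, 15.9, 24.3 and 14.2 CPM and IL12-2 at 0, 0.392, 0 and 0 CPM.

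Solyc08g061330 and Solyc01g010610 lie on different chromosomes and had nearly the same pattern across the 75 lines (r = 0.96), and both were near silent in the parents. Solyc08g061330 was at 0, 0.620, 0 and 0.431 CPM in M82, 39.0, 57.1, 45.0 and 28.05 CPM in IL4-2 and 39.0, 21.5, 17.1 and 30.5 CPM in IL11-2. Solyc01g010610 was at 0, 0, 0 and 0.216 CPM in M82, 11.35, 12.7, 6.87 and 7.98 CPM in IL4-2 and 6.82, 9.07, 6.43 and 4.85 CPM in IL3-1, and had no count in S. pennellii. The count was 20 lines for the former and 6 for the latter. Solyc11g050940, just outside the list and on a further chromosome, followed both at r = 0.95 and 0.94 across the 75 lines. Whether these genes share reads through near-identical sequence was not tested, so their separate counts are uncertain.

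Solyc03g045140 was low in M82 (4.22, 4.96, 3.19 and 1.73 CPM) and in S. pennellii (2.16, 1.82 and 1.06 CPM) and higher in 15 lines. The median line, at 10.8 CPM, was itself above every library of both parents. The libraries of IL8-3-1 were at 39.9, 41.5, 38.4 and 39.0 CPM. The lines of chromosome 3 held both the lowest and the second highest level of all 75. IL3-2 had 0, 0.198, 0.253 and 0 CPM, below every M82 and S. pennellii library, and IL3-1 had 46.1, 26.2, 48.8 and 36.7 CPM. Against the ILs on other chromosomes the log2 fold change was -5.95 in IL3-2 (adjusted p = 9.74e-20) and 2.104 in IL3-1 (adjusted p = 2.45e-37).

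In 3 members that were high in S. pennellii a few lines were high while all others were near 0, with replicates on the same side in all 75 lines. Solyc09g075690 is on chromosome 9. It was at 0.325, 0.414, 0 and 0.431 CPM in M82 and 27.8, 29.8 and 20.5 CPM in S. pennellii. On its own chromosome IL9-3 alone was high, at 35.0, 18.7, 29.6 and 32.7 CPM (edgeR, adjusted p = 1.56e-129). The 4 lines on other chromosomes that passed were IL11-1 with 27.95, 20.2, 28.9 and 26.8 CPM, IL12-4-1 with 25.3, 19.2, 23.1 and 28.1 CPM, IL7-1 with 23.5, 19.4, 22.9 and 27.6 CPM and IL12-1-1 with 19.7, 14.1, 19.2 and 16.8 CPM. The first 3 of these overlapped S. pennellii in their libraries, and all 4 overlapped IL9-3. A step of 4.35 log2 units, the largest of any member, parted these 5 lines from the other 70.

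The genes next to Solyc09g075690 did not share this distribution of lines. Of 15 tested genes within 10 positions, 4 differed between S. pennellii and the median line by more than 1 log2 unit. Solyc09g075680, the gene before it, averaged 23.3 CPM in M82 (range 19.4 to 29.6), 1.59 CPM in S. pennellii and 2.90 CPM in IL9-3 (edgeR, adjusted p = 8.71e-26). In IL11-1, IL12-4-1, IL7-1 and IL12-1-1 it averaged 32.0, 23.1, 19.9 and 22.3 CPM, close to the median line at 23.4 CPM. The next 2 genes, Solyc09g075700 and Solyc09g075710, averaged 11.03 and 13.3 CPM in S. pennellii but only 0.923 and 0.511 CPM in IL9-3, and the 4 lines on other chromosomes had at most 0.127 CPM of either. Solyc09g075720 averaged 32.2 CPM in M82, 79.99 CPM in S. pennellii, 59.1 CPM in IL9-3 and 22.1 to 30.2 CPM in the 4 lines. IL9-3 was therefore near the S. pennellii level at Solyc09g075680, between the parents at Solyc09g075720 and far below S. pennellii at the other 2, while the 4 lines on other chromosomes were far from S. pennellii at all 4 neighbours. The neighbours were examined after the values of Solyc09g075690 had been seen.

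Solyc11g008420 had no count in M82 and 23.5, 19.2 and 23.9 CPM in S. pennellii. Its own-chromosome lines IL11-1 and IL11-2 were high, at 18.9, 23.6, 13.7 and 16.1 CPM and 23.9, 14.0, 13.1 and 19.0 CPM, and the other 3 lines of chromosome 11 had no count. The 4 lines on other chromosomes were IL9-1 with 6.77, 10.45, 10.8 and 8.43 CPM, IL9-1-2 with 7.34, 6.83 and 7.52 CPM, IL9-1-3 with 8.44, 15.9, 6.45 and 7.38 CPM and IL12-1-1 with 6.49, 6.72, 8.17 and 6.98 CPM. All but 1 of their libraries lay below the lowest library of IL11-1 and IL11-2. Solyc01g009840, on chromosome 1, had no count in M82, 22.3, 24.3 and 31.5 CPM in S. pennellii and a total of 1 positive library in the 6 lines of chromosome 1. Its 4 high lines all carried a chromosome 9 segment, and replicate 2 of IL9-1-3 was the lowest of their libraries. IL9-2-5 had 21.0, 20.9, 19.5 and 15.6 CPM, IL9-1-3 had 22.6, 3.18, 16.5 and 17.98 CPM, IL9-1 had 13.4, 16.7, 12.9 and 16.2 CPM and IL9-2 had 3.74, 10.02, 16.3 and 13.9 CPM. The other 5 lines of chromosome 9 had no count of it.

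Solyc08g059700 was low in M82 (0.325, 0.827, 0 and 0.216 CPM), high in S. pennellii (24.7, 16.0 and 12.9 CPM) and highest among the lines in IL8-1 (14.0, 13.5, 10.99 and 10.33 CPM) and IL8-1-1 (9.43, 10.05, 11.38 and 10.4 CPM) of its own chromosome, both called by edgeR with adjusted p = 4.22e-62 and 1.13e-63. The 6 lines on other chromosomes reached at most 5.01 CPM, in IL12-3. Solyc03g096250 and Solyc04g057790 had no count in S. pennellii and at most 1 positive M82 library, and were found at a few CPM in some lines of other chromosomes. The former reached 7.32, 4.78, 7.08 and 6.73 CPM in IL11-2 and the latter 9.63, 8.36, 8.15 and 10.15 CPM in IL9-1. Solyc12g094620 shows how 1 library can decide a line. Its level was 0, 74.5, 0.887 and 0.514 CPM in IL3-4 and 0.681, 0, 0.332 and 55.2 CPM in IL9-2, so that the means of 19.0 and 14.1 CPM rest on 1 library each, while in IL12-3 of its own chromosome it was even at 9.49, 7.83, 10.09 and 9.34 CPM. The S. pennellii libraries had 45.0, 126 and 33.7 CPM.

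A further 6 members outside the shared pattern each had their highest mean in IL2-3, IL12-3 or IL6-2. Solyc00g084760, Solyc02g077020 and Solyc08g077910 were highest in IL2-3, at 5.78, 14.2 and 9.92 CPM. Solyc01g007550 and Solyc01g007620 varied together (r = 0.94 across lines) and were highest in IL12-3, at 46.9 and 85.5 CPM against M82 means of 3.12 and 8.54 CPM, and Solyc05g052280 was highest in IL6-2 at 42.8 CPM. S. pennellii exceeded the highest line in Solyc02g077020, with a mean of 31.0 CPM.

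**Figure D2:**
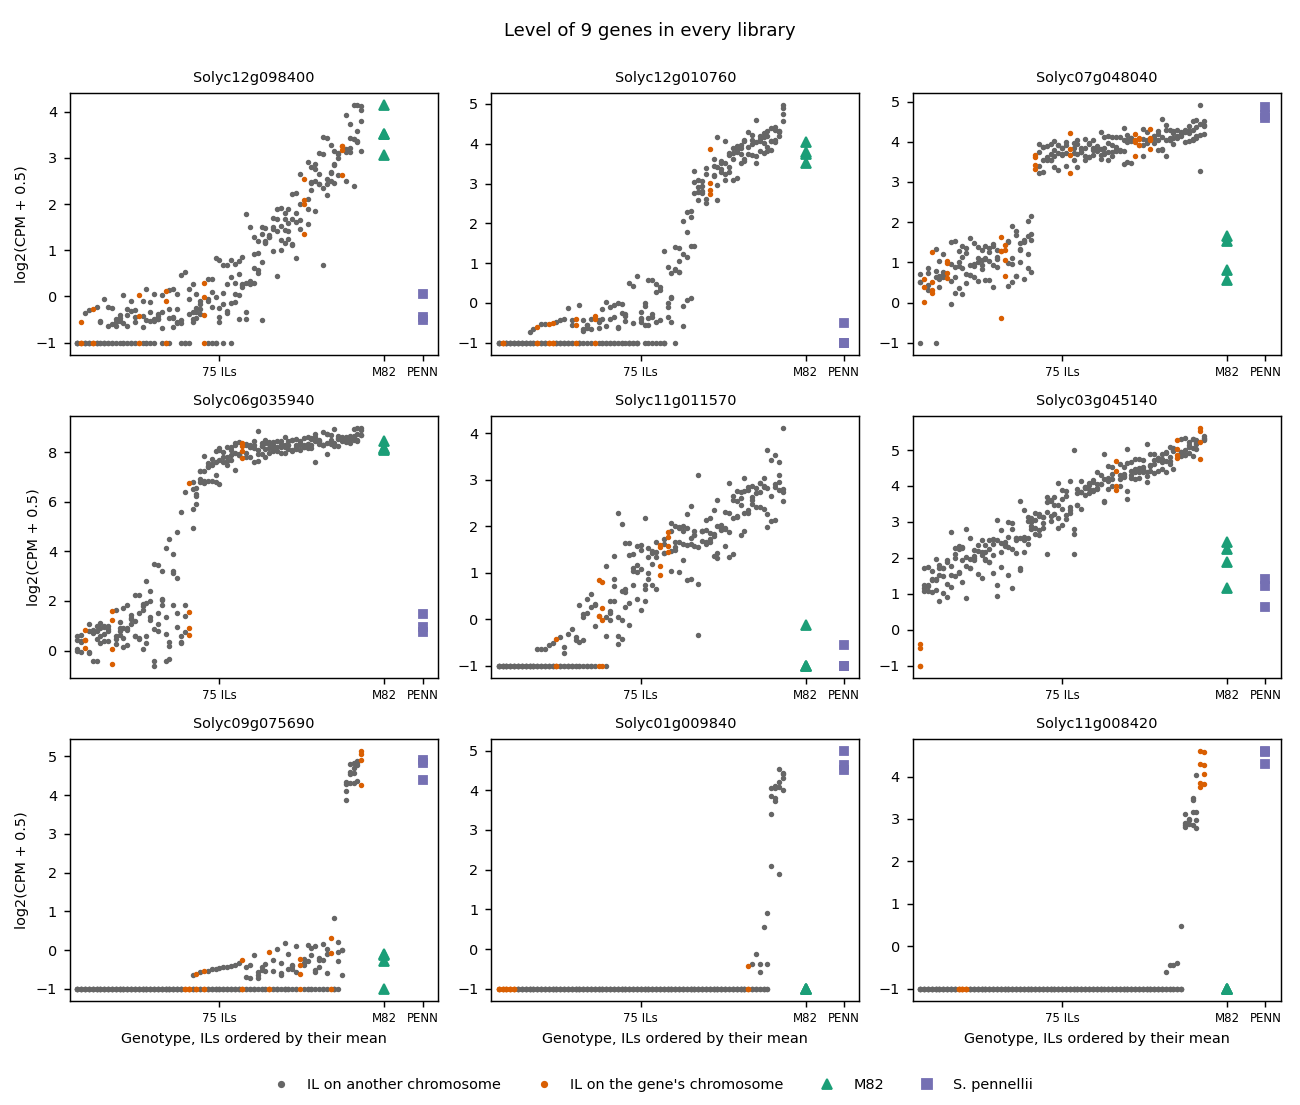
Level of 9 genes in every library, as log2(CPM + 0.5), with the 75 ILs in order of their mean on the x axis, followed by M82 and S. pennellii (PENN); orange points are ILs on the gene's own chromosome. Solyc07g048040 shows 2 separate levels, Solyc12g098400 and Solyc11g011570 a slope, and the bottom row a few high lines with all others near the value of no counts (-1).

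The shared pattern of 72 genes was of another kind, since these genes were high together in a limited set of lines. A total of 488 of its 558 pairs of a gene and a higher line (87.5%) came from 11 lines, and in 47 of 75 lines no gene of the group passed. Of the group's genes on other chromosomes, 68 of 70 were higher in IL12-3, 64 of 66 in IL6-2, 59 of 68 in IL2-3, 51 of 66 in IL6-1, 51 of 68 in IL2-5 and 50 of 66 in IL3-5. The remaining lines of the 11 were IL2-1-1, IL4-3-2, IL4-3, IL2-4 and IL9-3-1, with 23 to 33 genes each. The group's genes lie on chromosomes 1 to 12, and the lines carry segments of chromosomes 2, 3, 4, 6, 9 and 12.

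As a summary, the median over the 72 genes of log2(CPM + 0.5) was taken in each library. It was 0.38, 0.41, -0.38 and -0.10 in the 4 M82 libraries and 5.80, 5.92 and 5.68 in the 3 of S. pennellii. In IL12-3 it was 4.53, 4.403, 3.25 and 3.68, above every M82 library. In IL2-3 it was 3.11, 3.23, 3.103 and 4.77, with replicate 4 well above the other 3. IL6-2 had 3.58, 4.41, 4.89 and 0.10, so that replicates 1 to 3 were among the highest of all libraries and replicate 4 lay within the range of M82. That library had 1756911 counts, against 2303983 to 3227394 in the other 3. IL6-1 had 2.501, 4.18, 4.28 and 2.28, IL2-5 had 3.02, 2.71, 3.52 and 3.41 and IL3-5 had 2.79, 3.66, 3.28 and 3.13, which in each case are above all of M82. Some lines outside the 11 had a single high library, as in IL3-4 with 0.65, 3.22, 0.35 and 0.02. The range among the libraries of a line exceeded 2.5 log2 units in 5 lines, with 4.80 in IL6-2 as the largest and a median of 1.26.

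Depth and the tissue check were compared with this pattern. Over the 305 libraries the median level and the log2 library total had r = -0.05. In the 11 lines SHORT-ROOT averaged 30.0 to 38.6 CPM and SCARECROW 30.4 to 40.1 CPM, within the range of all lines, and FER 167 to 254 CPM, whose upper end was near the highest line of all. The part of cell composition or tissue sampling in the pattern was not tested, and in whole root tips more RNA per cell and more cells of a type cannot be told apart.

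**Figure D3:**
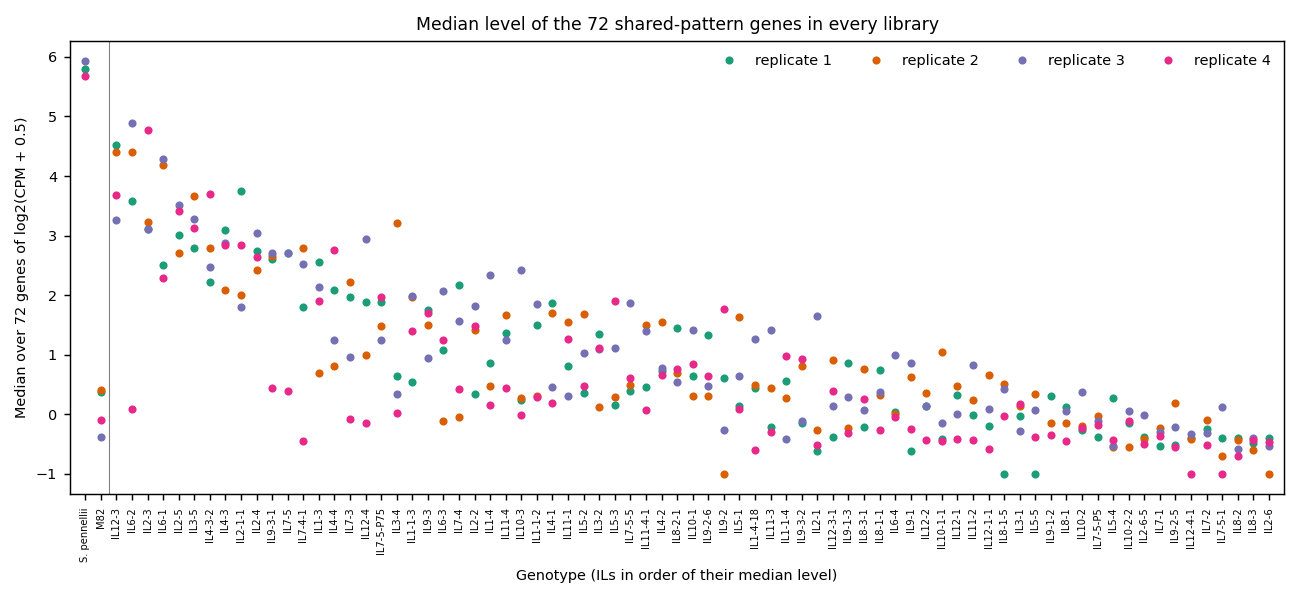
Median over the 72 shared-pattern genes of log2(CPM + 0.5) in each library, for S. pennellii, M82 and the 75 ILs in order of their level, coloured by replicate number. IL12-3 stands highest among the lines, and in IL6-2 replicates 1 to 3 are high while replicate 4 lies at the level of M82.

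Of the 25 genes with the most lines, 16 belonged to the shared pattern. Solyc10g009240 led them with 22 lines. It was at 0.974, 0.620, 0.266 and 0.431 CPM in M82, 45.1, 44.8, 24.9 and 28.5 CPM in IL12-3 and 40.4, 53.9, 80.8 and 2.28 CPM in IL6-2, whose last library again stood apart. S. pennellii had 103, 109 and 90.1 CPM. Solyc01g105770 averaged 6.32 ± 3.22 CPM (SD, n = 4) in M82, 150.3 ± 92.2 CPM in IL2-3 and 281 ± 43.2 CPM (n = 3) in S. pennellii. Solyc03g097500 averaged 9.92 ± 3.58 CPM in M82 and 137 ± 100.5 CPM in IL6-2, where the large SD comes from the low library of replicate 4. Solyc09g065440 had no count in M82 and averaged 23.1 ± 16.5 CPM in IL2-3. The other 12 of these genes, Solyc06g065670, Solyc11g067180, Solyc11g067190, Solyc05g052370, Solyc01g095750, Solyc04g011600, Solyc05g054900, Solyc09g082280, Solyc09g082300, Solyc03g005320, Solyc08g078030 and Solyc01g106920, had M82 means of 0.155 to 7.24 CPM and reached 13.9 to 84.8 CPM in their highest line.

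For 71 of the 72 genes the lines that passed were all higher than M82, and the highest line was IL12-3 for 24, IL6-2 for 23 and IL2-3 for 18. In 48 of the 72 the M82 mean was under 1 CPM, so that a line could pass only as higher. Solyc09g082280 was high in IL2-3, with 57.5, 52.4, 93.7 and 128 CPM against 1.299, 1.45, 0.266 and 0.647 CPM in M82 and 9.82, 10.13 and 2.65 CPM in S. pennellii, so that here the line exceeded both parents. Several members lie side by side, such as Solyc09g082280, Solyc09g082290 and Solyc09g082300, or Solyc04g014280 and Solyc04g014290 (r = 0.97 across lines), or Solyc11g067180 and Solyc11g067190 (r = 0.93). If such neighbours are near-identical copies their reads can be split between them, so their separate counts are uncertain. The level in the lines was not a fixed share of the level in S. pennellii. In IL12-3 the share had quartiles of 17.7% and 66.3% over 70 genes on other chromosomes, with a median of 30.6%, and 12 genes exceeded the S. pennellii mean.

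The level in S. pennellii had no part in the choice of genes and was set against the ILs. Its mean was compared with that of the ILs on other chromosomes than the gene by edgeR's quasi-likelihood test, with p-values adjusted over all 19591 genes tested and a call at an adjusted p of at most 0.01. All 100 members passed the filter on low counts. S. pennellii was higher in 80 members and lower in 5, against 23.1% and 22.7% of all genes tested, and 85 members were called in all against 45.8% of all genes. In the shared pattern 68 of 72 were higher and 1 was lower, while outside it 12 of 28 were higher and 4 lower. The median log2 fold change was 4.67 over the shared pattern and -0.61 over the other 28, beside -0.05 over all genes tested. The line levels that chose the genes also enter this contrast, so the counts are not independent of the choice. In the ILs these genes were counted on M82 sequence, and the study's methods do not spell out the reference for S. pennellii itself. If its reads were mapped to S. pennellii sequence, level and mapping reference cannot be told apart in this contrast.

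The largest differences in favour of S. pennellii were in Solyc06g076800, Solyc10g008810, Solyc05g046190, Solyc05g010330 and Solyc05g009280, all of the shared pattern. Solyc06g076800 was at 345, 313 and 294 CPM in S. pennellii, 0, 0.827, 0 and 0 CPM in M82 and 8.95, 13.4, 21.6 and 41.5 CPM in IL2-3, its highest line (edgeR against the ILs, adjusted p = 1.62e-145). The S. pennellii means of the other 4 were 116, 126, 184 and 128 CPM in that order, and their M82 means were 0, 0.0517, 0.259 and 0.106 CPM. Each of the genes with the largest differences had no count in any library of 12 to 27 lines, so the size of its fold change is uncertain. In 54 of the 72 genes the lowest S. pennellii library exceeded the mean of every line. S. pennellii was lower than the ILs in Solyc06g035940, Solyc03g006100, Solyc02g069190, Solyc03g045140 and Solyc01g081250, with adjusted p = 1.42e-10, 0.00561, 0.00914, 3.36e-11 and 0.00294. Solyc03g006100 is the exception within the shared pattern. It had no count in S. pennellii, 0.974, 0.827, 0.266 and 0 CPM in M82 and 12.15, 17.97, 24.4 and 0.569 CPM in IL6-2.

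The test is blind in a known case. For a gene at or near 0 in S. pennellii and with no count in some lines, the mean of the fitted log levels has no lower limit, and 10 members of this kind had an adjusted p above 0.9 with S. pennellii means of at most 0.324 CPM. DESeq2 with the ILs taken as 1 group, which does not have this limit, called 56 members higher and 8 lower at the same threshold, against 21.6% and 18.7% of the genes it tested, and among the 28 genes outside the shared pattern it called 2 higher and 7 lower. The 4 lower calls that it added were Solyc12g010760, Solyc11g011570, Solyc12g062200 and Solyc07g052700, and the call of Solyc01g081250 was lost (DESeq2 adjusted p = 0.0137). For genes high in a few lines its result was weaker, with a DESeq2 adjusted p of 0.262 for Solyc09g075690 and 0.548 for Solyc01g009840. Lines with no count in any library, found in 46 members, also pull down the edgeR mean of log levels. Higher calls and fold changes in such members therefore depend on the model. Solyc09g082280 was called higher by edgeR (adjusted p = 0.000343) and was not called by DESeq2 (adjusted p = 0.772). Without replicates 1 to 4 in turn the edgeR count of lower calls was 2 or 3. Solyc06g035940 and Solyc03g045140 kept the call in every such fit, Solyc03g006100 and Solyc02g069190 in none, and Solyc01g081250 only without replicate 2. The call of Solyc02g069190 was also lost with DESeq2's size factors and when low counts were kept. A filter at a mean of 5 CPM left 29 members called, 26 higher and 3 lower. Members below that mean were not tested under it, so the fall is not a count of calls that failed.

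**Figure D4:**
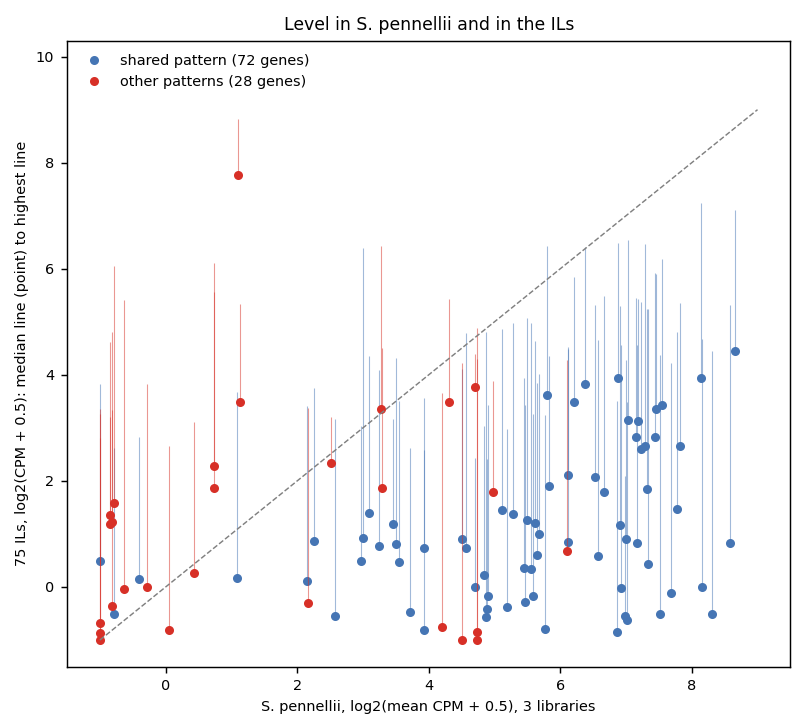
Level of the 100 genes in S. pennellii (x axis, mean of 3 libraries) and in the ILs (y axis, point at the median line, bar up to the highest line), both as log2(CPM + 0.5), with equality dashed. Most shared-pattern genes (blue) lie below the dashed line with their highest line still under the S. pennellii level, whereas the other genes (red) lie on both sides.

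The lines on a gene's own chromosome, which the choice had set aside, were tested in the same fit against the ILs on other chromosomes. They were included whether or not their segment covers the gene. Within its segment a line was counted on S. pennellii sequence and the ILs of other chromosomes on M82 sequence. Level and mapping reference cannot be told apart there. Of 626 such pairs of a member and a line, 130 were called higher (20.8%, against 6.71% of all 120111 pairs) and 24 lower (3.83%, against 5.72%), 154 in all, and 69 of 99 members had at least 1 call, against 47.7% of all genes tested on a chromosome with ILs. The reference is the average of the line levels that chose the genes, so these counts are not independent of the choice. The count of lower calls is limited in genes with lines at 0 in the way given above, and without replicates 2, 3 or 4 it was 13, 12 and 15. A filter at a mean of 5 CPM left 60 pairs, 44 of them higher, among the members still tested. In the shared pattern the calls followed the lines. In the 11 lines named above, 47 of 54 own-chromosome pairs were higher and none lower, and in the other 64 lines 37 of 396 were higher and 12 lower. All 6 members of chromosome 6 were called higher in both IL6-1 and IL6-2, all 6 of chromosome 3 in IL3-5, all 4 of chromosome 2 in IL2-3 and both of chromosome 12 in IL12-3. The lines of a gene's own chromosome entered the correlations that formed the group, so these calls are not independent of the grouping. The 11 lines were themselves set apart because the group's genes were high in them. The contrast with the other 64 lines is therefore a description.

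The largest own-chromosome changes were those of Solyc11g008420, Solyc09g075690, Solyc06g076800, Solyc08g059700 and Solyc03g045140. For Solyc06g076800 in IL6-1 the libraries were at 2.51, 29.3, 32.8 and 2.44 CPM, with 2 libraries far above the other 2, and the fitted log2 fold change was 6.22 (adjusted p = 4.25e-41). The fitted value for Solyc11g008420 was 8.79 in IL11-2 (adjusted p = 9.12e-34), but most other lines had no count of it, and the size then depends on the prior count of the fit. In Solyc09g075690 the value was 8.23 in IL9-3 with the same limit.

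The libraries of a line often disagreed in these genes. In 965 of 7500 pairs of a member and a line (12.9%) the highest and lowest library differed by more than 2.5 log2 units, against 0.596% of pairs over all genes tested and 0.599% over genes at or above the lowest member's level. The latter set holds 19351 of the 19591 genes tested, so it is not matched to the members' levels. No share is given for genes of a like level. The share was 15.2% in the shared pattern and 6.76% in the other 28 genes. Part of this is fixed by the choice, since a line mean that rests on 1 library can pass the threshold, as it did in 49 of 899 pairs. The share was 6.71% without replicate 4 and 8.08% without replicate 3, where fewer libraries are compared. It also moved with the pseudocount, to 34.5% at 0.1 and 7.25% at 1, and with the difference, to 23.9% at 2 and 6.53% at 3. The shares over all genes at these settings are not given, so these values are not to be set against 0.596%. Within single genes the range was wide. No line had such a spread in Solyc07g048040, whereas Solyc01g105770 had 33 lines with it.

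Replicate number, which stands for growth time and pool together, was tested with genotype in the same model. It was called in 47 of 100 members, against 69.4% of all genes. The M82 mean was under 1 CPM in 61 members and no share is given for genes of a like level. The smaller share is therefore not read as a trait of the members. The smallest p-values belonged to Solyc12g062200, Solyc04g014290, Solyc09g082280, Solyc04g014350 and Solyc10g075100, with edgeR adjusted p = 8.82e-10, 8.61e-09, 2.04e-08, 2.66e-08 and 9.05e-08. In the latter 4, all of the shared pattern, replicate 3 was highest, by 0.76, 1.19, 0.70 and 0.85 log2 units over replicate 1. With a filter at a mean of 5 CPM it was called in 22 of the members still tested. Without replicate 3 the count of members was 16 and these 4 were no longer called, with edgeR adjusted p = 0.828, 0.339, 0.569 and 0.0211. The shares over all genes in these alternative fits are not given, so the falls cannot be read as particular to the members. The group's median level over the ILs had medians of 0.45, 0.49, 0.90 and 0.16 in replicates 1 to 4, with ranges that overlapped throughout.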

How the data were processed

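RNA sequencing of root tips gave 305 libraries of 77 genotypes, grouped by the genotype and replicate number in the labels. Per the study's methods the authors mapped reads with BWA to a reference made for each IL, with S. pennellii sequence within its segment and M82 sequence elsewhere, and counted reads per gene, so a gene outside the segment was counted on M82 sequence. Genes at segment ends may have unsure counts, above all in IL7-5-1, IL7-5-P5 and IL7-5-P75. The deposited table holds raw counts per gene and library. A second deposited table holds CPM scaled by the authors with TMM, treated as a score because its total is not fixed, and was used only as an alternative. BWA, SAMtools and edgeR are named in the submitters' processing notes; their versions are not given in the sources used. 9 columns matched no sample and were not used, and deposited tables of the authors' own comparisons or pooled values were not used.

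CPM was computed from column totals with a pseudocount of 0.5. The members and lists were chosen with earlier results of these data known. Genes named in the text were the 25 with the highest count, the 5 largest calls in each direction for S. pennellii, the 5 largest own-chromosome calls, the 5 smallest p for replicate number and the genes at ranks 96 to 105; Solyc07g052700, Solyc01g009840, Solyc01g010610, Solyc03g096250, Solyc04g057790, Solyc12g094620, Solyc09g075680 and the other single members were added after their values were seen. Lists of other tissues defined by product words could not be applied without names. Tests used edgeR 4.0.16 (glmQLFit, glmQLFTest, TMM, filterByExpr by genotype, 1 fit of all libraries) in R 4.3.3 with Benjamini-Hochberg adjustment and a threshold of 0.01, and DESeq2 1.42.0 as an alternative. On simulated counts, 72% of genes changed by 1 log2 unit in S. pennellii and 100% of those changed by 2 were recovered. The changed genes were all at a mean of at least 5 CPM, and every gene had the same dispersion. The M82 mean was under 1 CPM in 61 members and their libraries spread widely, so these rates may not hold for the members.

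Same-numbered libraries share a growth time and pool in the study's methods, which pairs them across genotypes; their deviations from the genotype means correlated at a mean r of 0.0909, against -0.0297 for other numbers, and 227 of 305 libraries were closest to their own number. Plants of a line were pooled, and p-values measure the spread between these libraries. No replicate pair had identical counts, and the lowest chi-square per degree of freedom between replicates was 1.67. Alternatives were another normalisation, pseudocount, threshold, filter and reference, the replicate block, and each replicate left out.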

Additional observations from a re-analysis of the deposited data

Results flagged for a closer look

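Libraries far from the other 3 of their genotype were looked for in the 93 groups of 4 libraries whose values are given above. Dixon's test at 95% was used, which flags about 1 in 20 groups by chance where values are normally spread. In 11 groups 1 library stood apart. The groups were those printed and no random draw, so this count cannot be set against the rate of 1 in 20. The median level of the 72 shared-pattern genes in IL2-3 was 4.77 in replicate 4, above the other 3 libraries. Solyc06g035940 in IL6-1 was at 106 CPM in replicate 2, against low values in the other 3. Solyc12g094620 was at 74.5 CPM in IL3-4 replicate 2 and at 55.2 CPM in IL9-2 replicate 4, with the other libraries of both lines near 0. Solyc11g011570 in IL7-3 was at 16.9 CPM in replicate 1, and Solyc12g098400 in IL12-2 was lowest in replicate 2, at 5.68 CPM.

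The other 5 were single libraries with a low value where the remaining 3 had no count. A group of this kind is always flagged by the test, whatever the size of the value. In M82 these were Solyc11g011570 at 0.414 CPM and Solyc06g076800 at 0.827 CPM in replicate 2, Solyc04g057790 at 0.325 CPM in replicate 1 and Solyc01g010610 at 0.216 CPM in replicate 4. In IL12-2 it was Solyc12g062200 at 0.392 CPM in replicate 2. The cause of these single libraries was not tested.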

How the results depend on the processing

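Of the 100 genes, 68 to 99 were chosen again under another threshold, pseudocount, scaling or reference, the fewest with a pseudocount of 0.1 (68) and with the median of the other lines in place of M82 (71). Without M82 replicates 1 to 4 the numbers were 91 to 93, and without replicates 1 to 4 of the ILs 89 to 96. The 2 alternatives chosen after seeing the data, without IL6-2 replicate 4 and without the libraries under 1000000 counts, gave 98 and 100.

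With the replicate block S. pennellii was higher in 80 and lower in 5 members, and 154 own-chromosome pairs were called in 69 members, the counts of the fit without it; the block moved no other count by more than 1.5 times. A filter at a mean of 5 CPM tests fewer genes and fewer members. It left 29 members called between S. pennellii and the ILs (26 higher, 3 lower). It also left 60 own-chromosome pairs (44 higher) in 24 members and 22 members called for replicate number. The number of members lower in S. pennellii was 8 with DESeq2 and 8 with M82 as the reference, and 2 to 3 without single replicates, including 2 without any 1 of the S. pennellii libraries. Own-chromosome pairs called lower were 12 to 17 without single replicates and 41 at an adjusted p of at most 0.05. Members called for replicate number were 16 to 46 without single replicates, with no share over all genes given beside these counts. The share of member and line pairs with replicates over 2.5 apart was 34.5% with a pseudocount of 0.1 and 7.25% with 1. It was 23.9% at a difference of 2, 6.53% at 3, and 6.71% to 9.61% without single replicates. The shares over all genes at these settings are not given. For the single named genes 175 of 202 values kept their side of the threshold and 27 lost it, and none reversed; for those the cause was not tested. Depth limits the genes near 0, where 1 count decides the value.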
